A study of Mus musculus with 17 samples.

Results

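Hepatectomy, the surgical removal of liver tissue, was compared with a sham operation in intestinal epithelial cells (IEC), the cells that line the small intestine. The comparison takes the 4 IEC libraries among the 17 libraries of the series, 2 titled as sham and 2 titled as hepatectomy. Both groups are labelled as small intestinal IEC of wild-type mice, and their labels differ only by the operation. The 4 crypt libraries of the same operations entered the fit, so that the spread was estimated over 4 groups of 2, and they give the effect in crypts that is set beside the effect in IEC at the end. The extent of the hepatectomy, the time from operation to sampling, the strain, age, sex and number of the mice, and the way in which IEC were isolated are not given in the sources used here. Nothing in the labels says that the 2 libraries of a group came from separate mice, so the p-values reflect the spread between libraries alone, and that spread may be technical. The running numbers of the libraries form separate series for sham and hepatectomy, so the operation and the series cannot be told apart in any result below.

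The small intestinal epithelium is renewed from stem cells in the crypts, whose daughters divide a few more times and then mature into absorptive enterocytes or into secretory goblet, Paneth, enteroendocrine and tuft cells. Enterocytes move up the villus as they mature, and their programme changes on the way, from antimicrobial genes at the villus base through nutrient absorption along its middle to nucleotide and adhesion genes at its tip. The nuclear receptors HNF4 and PPAR-alpha control much of the absorptive programme, and many metabolic genes of the gut follow the daily clock and feeding. PEDF, the secreted product of Serpinf1, is named in the title of the series.

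The IEC libraries held 27560260 and 26958757 counts in sham and 36116186 and 33868014 counts after hepatectomy. Epithelial genes were high in all 4 libraries. The 16 genes of that list summed to 19400 to 19800 counts per 1e+06 counts (CPM, TMM-normalised) in sham and 20100 to 20500 CPM after hepatectomy, and the surface marker Epcam stood at 1809 and 1826 CPM in sham and 1913 and 2015 CPM after hepatectomy (log2 fold change 0.11 ± 0.038, adjusted p = 0.034, a call that 10 of the 15 alternatives lose). The libraries differed in content that is not specific to epithelium. Between 30454 and 30461 genes had a count after hepatectomy, against 25987 and 26186 in sham. Olfactory receptor genes, which are not known for expression in the gut, summed to 131 and 139 CPM against 70.7 and 82.3 CPM, here without TMM scaling. The predicted gene Gm10800 took 4.96% to 5.12% of the counts after hepatectomy and 1.83% to 2.39% in sham, a ribosomal RNA gene 4.98% to 5.88% and 11.6% to 11.7%, and mitochondrial genes 7.86% to 8.77% and 10.1%. At these depths the exact 95% binomial interval of each such share is at most 0.024 percentage points wide, which covers counting error only. The part of this difference in content in the results below was not tested. The sources used here do not give the strand used for counting, and exons of 44 of the 182 genes named below overlap an exon of another gene, so those counts are uncertain. The overlap takes 74.9% of the exon bases of Nr1i3, 73.5% of Mt2, 67.3% of Gins2, 42.8% of Duoxa2, 34.9% of Apoa4, 31.9% of Slc1a1, 31.4% of Tff1, 23.4% of Ccnd1, 22.8% of Ube2c, 20.5% of Dll1, 18.3% of Fdft1 and 18% of Dbp.

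Of 18207 genes tested with edgeR's quasi-likelihood test, 3543 were higher and 3334 lower after hepatectomy at an adjusted p under 0.05, which is 19.5% and 18.3% of the genes tested, and 37.8% changed in either direction. Called changes of at least 2-fold numbered 1035 upwards (5.68%) and 396 downwards (2.17%). The 2 sham and the 2 hepatectomy libraries did not overlap for 12386 genes (68.0%), so a lack of overlap was the common case. The median log2 fold change (log2 of hepatectomy over sham, given below with its standard error) was 0.02 over all genes tested. Gene lists are described by how many of their tested members were called in each direction and by their median, beside these shares. For every gene named below as having risen or fallen, Gata4 excepted, both hepatectomy libraries lay on the same side of both sham libraries.

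**Figure D1:**
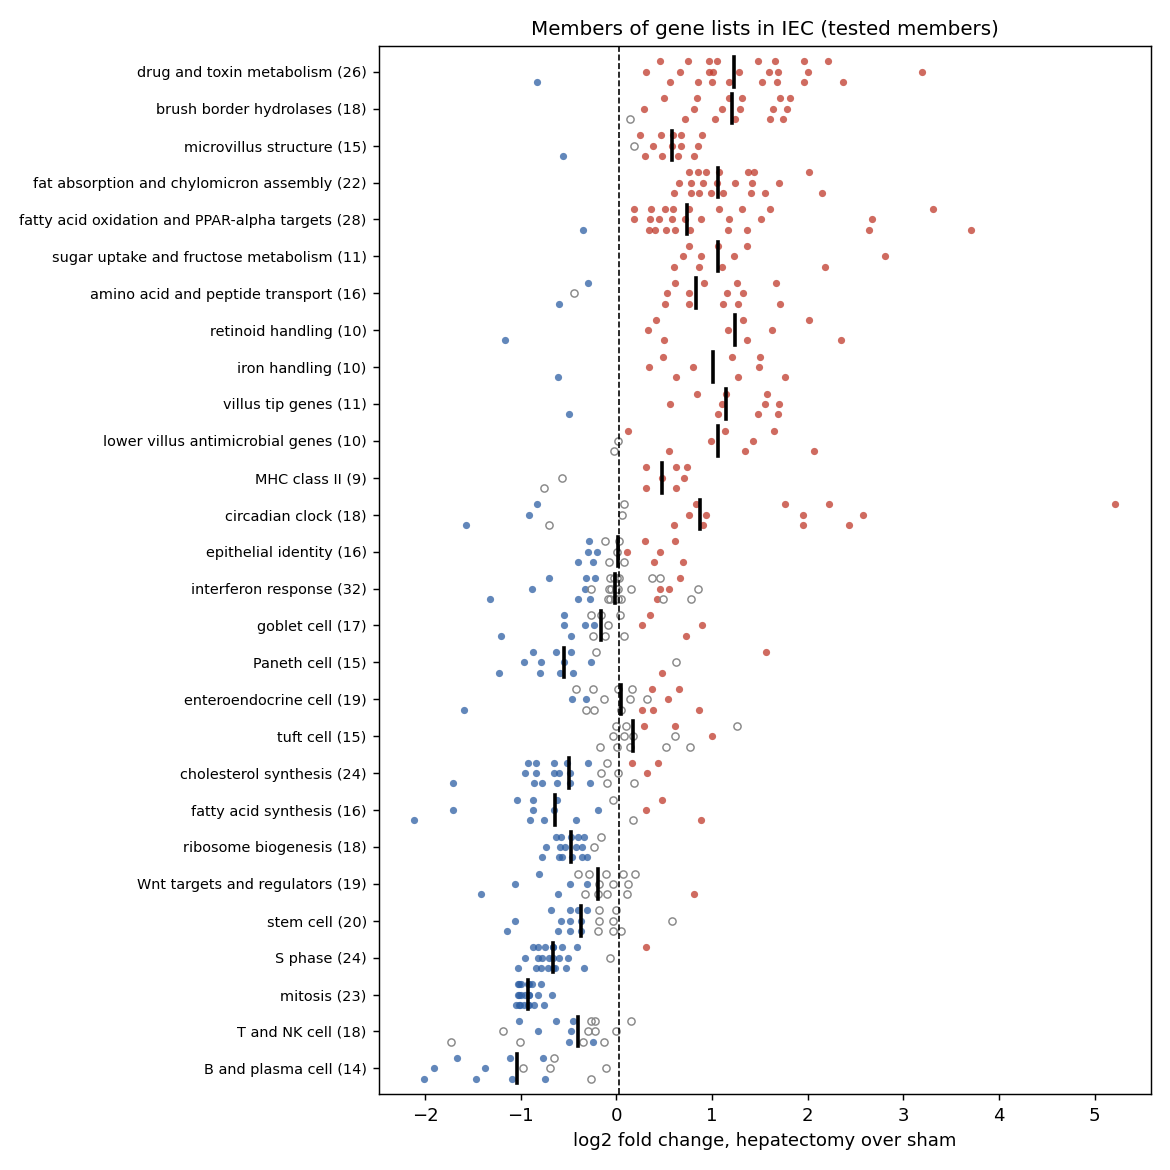
Log2 fold change of hepatectomy over sham in IEC for every tested member of 28 gene lists, with 1 point per gene. Filled points passed an adjusted p under 0.05 (red higher, blue lower), open points did not, black bars are list medians and the dashed line is the median of all 18207 genes. The medians of the lists of absorption and drug metabolism lie to the right of the dashed line, and those of mitosis, S phase, cholesterol synthesis and plasma cells to its left.

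Digestive enzymes of the enterocyte surface rose. Of 18 hydrolases of the brush border, the carpet of microvilli that digests sugars and peptides, 17 were higher and 0 lower, with a median log2 fold change of 1.21. Alpi, the intestinal alkaline phosphatase (chromosome 1, 87098002 to 87101606, minus strand, mm10), stood at 602 and 595 CPM in sham and 2102 and 2008 CPM after hepatectomy (log2 fold change 1.78 ± 0.041, adjusted p = 5.6e-11). Ggt1, a gamma-glutamyl transferase that breaks down glutathione, stood at 295 and 279 CPM in sham and 967 and 908 CPM after hepatectomy. Ace, the peptidase known as angiotensin-converting enzyme, stood at 366 and 359 CPM in sham and 1218 and 1212 CPM after hepatectomy. These 3 genes were at more than 3 times the sham level in both hepatectomy libraries, with little spread inside either group. Treh, which splits trehalose, went from 192 and 194 to 603 and 578 CPM. Sis (sucrase-isomaltase) rose by 1.17 ± 0.063 and Lct (lactase) by 1.03 ± 0.048 on the log2 scale (adjusted p = 3.0e-08 and 8.8e-09). Xpnpep2, a proline-specific aminopeptidase, was the member that did not pass, with 93.1 and 94.6 CPM in sham and 108 and 98.7 CPM after hepatectomy (adjusted p = 0.095). These are bulk libraries, in which fewer cells of a type and less RNA per cell cannot be told apart.

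The scaffold of the microvillus moved the same way by smaller amounts. Of 15 structural genes 13 were higher and 1 lower, with a median of 0.58. Cdhr2, a cadherin that links microvilli at their tips, stood at 526 and 503 CPM in sham and 968 and 952 CPM after hepatectomy. Slc9a3r1, a scaffold under the apical membrane, stood at 597 and 580.1 CPM in sham and 1045 and 1084 CPM after hepatectomy. Vil1, the actin bundler villin, rose by only 0.30 ± 0.050 on the log2 scale (adjusted p = 4.6e-04). Baiap2l1, an actin regulator, was the member that fell (111 and 111 to 79.2 and 71.1 CPM).

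Genes of broad epithelial identity were split, with 6 of 16 higher, 5 lower and a median of 0.02. Krt20, a keratin of mature villus cells, rose from 992 and 999 to 1685 and 1541 CPM. Krt19, a keratin of the whole epithelium, fell from 2804 and 2712 to 2181 and 1999 CPM. The HNF4 receptors parted as well, with Hnf4g up (log2 fold change 0.62 ± 0.065, adjusted p = 1.0e-05) and Hnf4a down (log2 fold change -0.30 ± 0.045, adjusted p = 2.4e-04). Tight junction genes were also divided, with 6 of 14 higher and 3 lower. Cldn15, the claudin that forms sodium pores on the villus, rose from 519 and 511 to 714 and 721 CPM, and Cldn2, a pore-forming claudin of crypt cells, fell from 139 and 138 to 79.9 and 76.7 CPM.

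All 22 genes of fat absorption and chylomicron assembly were higher, with a median of 1.06. Fatty acids enter the enterocyte, are bound by carrier proteins, are rebuilt into triglyceride and leave with apolipoproteins as chylomicrons, and members of each step were among the 22. For uptake, Cd36, a fatty acid translocase, stood at 31.8 and 28.2 CPM in sham and 137 and 129 CPM after hepatectomy (log2 fold change 2.15 ± 0.075, adjusted p = 7.4e-10). The carrier Fabp1 stood at 2470.0 and 2479 CPM in sham and 6749 and 6340.4 CPM after hepatectomy. Its relative Fabp2 stood at 3258 and 3245 CPM in sham and 8650.4 and 8924 CPM after hepatectomy. Both carriers rose more than 2-fold from already high levels. For triglyceride synthesis, Dgat2, an acyltransferase, went from 164 and 164 to 453 and 425 CPM, and Mogat2, which acts before it, from 471 and 446 to 947 and 879 CPM. Among apolipoproteins, Apoa4 stood at 6561 and 6345 CPM in sham and 19625 and 18169 CPM after hepatectomy. Apoa1, the main protein of HDL, stood at 10202 and 9999 CPM in sham and 27035 and 25468 CPM after hepatectomy. Creb3l3, a membrane-bound transcription factor known to drive apolipoprotein genes, rose with them (187 and 182 to 606 and 594 CPM, log2 fold change 1.70 ± 0.053, adjusted p = 2.8e-10). The smallest rise of the 22 was that of Npc1l1, the cholesterol importer, at 0.60 ± 0.050 (adjusted p = 1.2e-06).

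Of 30 listed genes of fatty acid oxidation and PPAR-alpha targets 28 passed the filter on low counts, and of these 27 were higher, with a median of 0.74. Cyp4a10, a fatty acid omega-hydroxylase (chromosome 4, 115518264 to 115533649, plus strand), stood at 0.746 and 0.959 CPM in sham and 10.8 and 11.6 CPM after hepatectomy, a 13.1-fold rise (log2 fold change 3.71 ± 0.21, adjusted p = 4.4e-08). Acot1, an acyl-CoA thioesterase, went from 5.56 and 5.10 to 35.3 and 32.6 CPM. The rises of these targets were far larger than the gap between libraries of a group. Pdk4, a kinase that holds back the entry of pyruvate into the citric acid cycle, went from 4.14 and 5.45 to 31.9 and 27.8 CPM. Enzymes of beta-oxidation itself rose by less and unevenly, with Acadl (the long-chain dehydrogenase) at 1.60 ± 0.047 and Acadm (the medium-chain dehydrogenase) at 0.36 ± 0.048 on the log2 scale. Cpt1a, which admits long-chain fatty acids to mitochondria, was the 1 member that fell, with 105 and 107 CPM in sham and 80.3 and 86.4 CPM after hepatectomy (log2 fold change -0.35 ± 0.051, adjusted p = 1.6e-04).

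The receptors for these targets moved in different directions. Ppara, the gene of PPAR-alpha, stood at 21.9 and 19.7 CPM in sham and 43.6 and 46.6 CPM after hepatectomy (log2 fold change 1.11 ± 0.076, adjusted p = 2.3e-07). Pparg, better known from fat cells, went from 5.60 and 4.76 to 10.1 and 10.7 CPM. Ppard, the third member of the family, fell from 23.2 and 21.0 to 14.4 and 15.6 CPM (adjusted p = 3.0e-04). Ppargc1a, a coactivator of oxidative metabolism, rose by 0.39 ± 0.071, and Med1, a Mediator subunit that binds these receptors, fell by 0.38 on the log2 scale (adjusted p = 8.0e-04 and 2.8e-04). The other 6 tested genes of this list, Rxra among them (log2 fold change 0.21 ± 0.081, adjusted p = 0.059), did not pass, although Rxra passed in 5 of 15 alternatives, among them without either hepatectomy crypt library (adjusted p = 0.049), and Rxrg was below the filter. Downstream, 9 of 24 nuclear genes of mitochondrial respiration were higher and 0 lower, with a median of 0.09, and 9 of 20 citric acid cycle genes were higher and 4 lower. With a stricter filter on low values the respiration count rose to 16, and the 4 falls became 2 without either sham IEC library or without the second hepatectomy IEC library.

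Serpinf1 was near the floor in all 4 libraries, with 0 and 0 counts in sham and 2 and 2 counts after hepatectomy. A count of 0 allows up to 3 counts, so a change of the PEDF transcript in IEC was not detectable at this depth. Of its proposed partners, Pnpla2, the triglyceride lipase ATGL, stood at 119 and 118 CPM in sham and 96.7 and 109 CPM after hepatectomy (log2 fold change -0.20 ± 0.059, adjusted p = 0.019). Rpsa, a ribosomal protein and laminin receptor with many near copies in the genome, stood at 337 and 321 CPM in sham and 253 and 295 CPM after hepatectomy (log2 fold change -0.27 ± 0.082, adjusted p = 0.023). Both falls were small, and the libraries of the hepatectomy group differed from each other by a similar amount. The Pnpla2 call was lost in 4 of 15 alternatives, among them those without the first hepatectomy IEC library or without either sham IEC library. The Rpsa call was lost in 3 of 15, among them those without the first hepatectomy or the first sham IEC library. The Wnt coreceptors Lrp5 and Lrp6 did not pass (adjusted p = 0.27 and 0.45), nor did Plxdc1 (0.373 and 0.230 CPM in sham and 0.361 and 0.179 CPM after hepatectomy), and Plxdc2 was below the filter.

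Sugar and amino acid genes moved in the same direction as the fat genes. All 11 genes of sugar uptake and fructose metabolism were higher, with a median of 1.07. Slc5a1, the sodium-glucose cotransporter of the apical membrane, stood at 1295 and 1284 CPM in sham and 3115 and 2921 CPM after hepatectomy. Slc2a2, the transporter through which sugar leaves the cell, stood at 169.9 and 172 CPM in sham and 357 and 359 CPM after hepatectomy. Pck1, a gluconeogenic enzyme, had the largest rise of the list (27.7 and 25.9 to 184 and 191 CPM, log2 fold change 2.81 ± 0.065, adjusted p = 5.6e-11). Of 16 amino acid and peptide transporters 13 were higher and 2 lower. Slc15a1, the peptide transporter PEPT1, went from 137 and 142 to 340.2 and 359.8 CPM, and Slc6a20a, an imino acid carrier, from 104 and 98.3 to 327 and 317 CPM. The 2 that fell were Slc1a1, a glutamate carrier (77.7 and 81.4 to 54.4 and 50.6 CPM), and Slc38a2, a glutamine carrier (57.7 and 55.8 to 45.7 and 47.0 CPM).

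Vitamin and metal genes were mostly higher. In the retinoid list 9 of 10 tested genes rose, led by Aldh1a1, a retinaldehyde dehydrogenase (86.9 and 87.8 to 418 and 473 CPM, log2 fold change 2.35 ± 0.064, adjusted p = 1.2e-10). Bco1, which cleaves beta-carotene, was the member that fell (2.84 and 3.38 to 1.35 and 1.43 CPM). In the iron list 9 of 10 rose. Slc40a1, the iron exporter ferroportin, went from 36.2 and 37.7 to 107 and 102 CPM, and Slc46a1, a folate and heme carrier, from 134 and 137 to 335 and 318 CPM. The transferrin receptor Tfrc, which takes up iron from blood, was the one that fell (191 and 188 to 122 and 127 CPM, log2 fold change -0.61 ± 0.068, adjusted p = 1.9e-05). Of 9 metallothionein and zinc genes 7 were higher and 0 lower. Mt2, a metal-binding protein, went from 7.09 and 8.90 to 27.8 and 31.0 CPM, and Slc30a10, a manganese exporter, from 21.6 and 22.0 to 75.8 and 73.8 CPM.

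Of 9 genes of ileal bile acid handling 4 were higher, 3 lower and 2 not called, with a median of 0.14. Fabp6, the ileal bile acid binding protein, fell from 278 and 267 to 95.7 and 111 CPM (log2 fold change -1.40 ± 0.077, adjusted p = 3.8e-08). Slc10a2, the ileal bile acid importer, did not pass, with 14.03 and 11.2 CPM in sham and 10.97 and 13.7 CPM after hepatectomy and overlapping groups (adjusted p = 0.85). The bile acid receptor gene Nr1h4 fell by 0.33 on the log2 scale (adjusted p = 0.0022), while Abcc2, an apical exporter of conjugates, rose from 45.1 and 46.4 to 146 and 149.9 CPM. Of 9 genes of the proximal small intestine 8 were higher, including Pdx1, a duodenal transcription factor (6.72 and 5.45 to 21.5 and 20.2 CPM). Most of these 9 genes are also counted in the brush border, iron or retinoid lists, so this count is not separate from those. Gata4, a transcription factor of the proximal gut, reached an adjusted p of 0.045. Its groups overlapped, however, with 38.3 and 64.1 CPM in sham and 55.6 and 123 CPM after hepatectomy. The Gata4 call was lost in 8 of 15 alternatives, among them those without the first sham IEC library, the second hepatectomy IEC library or any 1 crypt library. Which stretch of intestine was taken, the sources used here do not say.

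Genes of the villus tip were higher in 10 of 11 cases, with a median of 1.15. Ada, adenosine deaminase, stood at 88.4 and 86.0 CPM in sham and 246 and 242 CPM after hepatectomy. Slc28a1, a nucleoside carrier, stood at 47.7 and 44.9 CPM in sham and 142 and 134 CPM after hepatectomy. Egfr, the receptor of epidermal growth factor, was the member that fell (15.8 and 17.3 to 11.4 and 12.0 CPM). In the list of EGF family genes 6 of 14 were higher and 2 lower, with the ligand Hbegf going from 11.6 and 12.2 to 20.0 and 17.9 CPM and the feedback inhibitor Errfi1 from 17.4 and 14.8 to 43.3 and 42.5 CPM.

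Of 26 genes of drug and toxin metabolism 25 were higher and 1 lower, with a median of 1.23. Cyp3a11, a major drug-oxidising cytochrome P450, stood at 99.9 and 99.1 CPM in sham and 535 and 493 CPM after hepatectomy (log2 fold change 2.37 ± 0.057, adjusted p = 7.0e-11). Abcb1a, the P-glycoprotein efflux pump, stood at 49.4 and 49.3 CPM in sham and 237 and 222 CPM after hepatectomy. Cyp2j6, an epoxygenase, stood at 90.0 and 88.8 CPM in sham and 347 and 349 CPM after hepatectomy. These rises were 5.17-fold, 4.64-fold and 3.89-fold, and the 2 libraries of each group were close. The receptors known to control such genes rose by unequal amounts, Nr1i3 (CAR) from 35.0 and 34.5 to 109 and 102 CPM and Nr1i2 (PXR) from 55.3 and 58.4 to 79.1 and 77.0 CPM. Cyp1a1, a target of the aryl hydrocarbon receptor, was the member that fell (23.9 and 23.0 to 13.7 and 12.7 CPM, adjusted p = 8.7e-05). Genes of the Cyp2c, Cyp3a, Ces and Ugt1a families resemble their neighbours in sequence, so the split of reads within each family is uncertain.

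Antimicrobial genes of the lower villus were higher in 8 of 10 cases and lower in 0. Reg3b, a secreted lectin that acts on bacteria, stood at 4533 and 4443 CPM in sham and 18504 and 19079.9 CPM after hepatectomy (log2 fold change 2.07 ± 0.037, adjusted p = 2.1e-11). Its relative Reg3g stood at 3331 and 3240.2 CPM in sham and 8928 and 8811 CPM after hepatectomy. Reads could be shared between these close relatives, and both rose. Of 11 genes of MHC class II presentation, by which enterocytes and immune cells show antigen to T cells, 9 were tested, 7 were higher and 0 lower. H2-Aa, the alpha chain, went from 431 and 426 to 699 and 696 CPM, and H2-Ab1, the beta chain, from 889 and 837 to 1518 and 1357 CPM. Macrophage and dendritic cell genes, which come from other cells that carry class II, summed to 22.2 to 23.7 CPM in sham and 19.0 to 19.2 CPM after hepatectomy, and their part in this result was not tested. Interferon response genes had no common direction, with 4 of 32 higher and 8 lower, the latter 5 without the second sham or the second hepatectomy IEC library. Irgm1, an interferon-induced GTPase, fell from 35.8 and 34.5 to 21.6 and 21.4 CPM, and Irf7, a transcription factor of the interferon response, rose from 65.9 and 66.1 to 101 and 92.6 CPM.

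**Figure D2:**
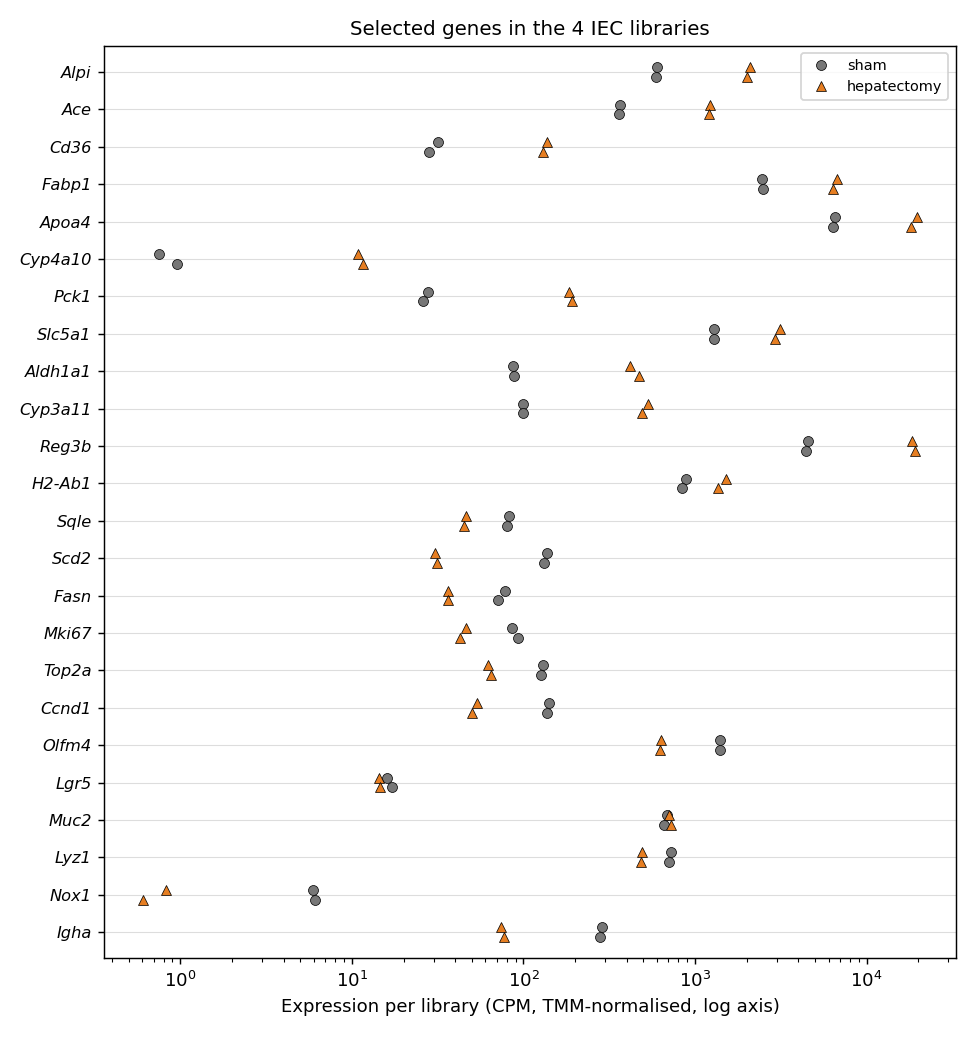
Expression in each IEC library, in TMM-normalised CPM on a log axis, for 24 genes of absorption, oxidation, defence, lipid synthesis, division, secretory cells and immune cells. Grey circles are the 2 sham libraries and orange triangles the 2 hepatectomy libraries. The symbols of a group nearly coincide for most genes; Lgr5 and Muc2 are the 2 genes shown that did not pass an adjusted p under 0.05.

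Lipid synthesis moved against lipid absorption. Of 24 genes of cholesterol synthesis and sterol control 16 were lower, 3 higher and 5 not called, with a median of -0.50. Hmgcs1, an early enzyme of the pathway, stood at 134 and 134 CPM in sham and 89.8 and 80.7 CPM after hepatectomy. Fdft1, squalene synthase, stood at 69.6 and 70.5 CPM in sham and 39.6 and 38.5 CPM after hepatectomy (log2 fold change -0.84 ± 0.053, adjusted p = 1.1e-07). Sqle, squalene epoxidase, which acts next, stood at 82.1 and 80.7 CPM in sham and 46.3 and 44.9 CPM after hepatectomy. In these 3 enzymes the groups were well apart, and the libraries of each group were close. The 3 genes that rose, Tm7sf2, Sc5d and Dhcr7, encode late steps and had log2 fold changes of 0.32, 0.44 and 0.16. The Dhcr7 call was lost in 8 of 15 alternatives, among them those without any 1 of the 4 IEC libraries or without either sham crypt library. Of 16 genes of fatty acid synthesis 11 were lower and 3 higher, with a median of -0.64. Scd2, a stearoyl-CoA desaturase, stood at 136 and 132 CPM in sham and 30.7 and 31.5 CPM after hepatectomy (log2 fold change -2.11 ± 0.054, adjusted p = 7.7e-11). Fasn, fatty acid synthase, stood at 78.0 and 70.7 CPM in sham and 36.3 and 36.3 CPM after hepatectomy. Lpin1, a phosphatidate phosphatase, fell from 9.63 and 8.06 to 2.43 and 3.0 CPM. Me1, which supplies NADPH for synthesis, was the largest of the 3 rises (7.65 and 8.21 to 13.9 and 15.4 CPM).

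Cell division genes were lower almost without exception. All 23 mitosis genes fell, with a median of -0.93, and 22 of 24 S phase genes fell, with a median of -0.66. Cdc20, an activator of the anaphase-promoting complex, stood at 113 and 114 CPM in sham and 58.2 and 57.7 CPM after hepatectomy (log2 fold change -0.97 ± 0.050, adjusted p = 2.3e-08). Mki67, the proliferation antigen Ki-67, stood at 85.7 and 93.0 CPM in sham and 46.5 and 42.9 CPM after hepatectomy. The mitotic genes kept to a narrow range of log2 fold changes, from -0.68 for Birc5 to -1.05 for Cenpe. Among replication genes, Mcm2, a subunit of the replicative helicase, went from 71.6 and 69.4 to 40.1 and 38.5 CPM, and Uhrf1, which maintains DNA methylation, from 60.0 and 57.5 to 33.5 and 32.9 CPM. Gins2, a subunit of the helicase complex, did not pass (adjusted p = 0.57).

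Many mitotic promoters hold the cell cycle genes homology region (CHR, searched as TTTGAA on either strand), through which the MuvB complexes are known to time transcription in the cell cycle. Promoter stretches from RefSeq (GRCm38.p6, 250 bases before to 50 after the start) were found for 20 of the 23 mitosis genes. Of these 20 genes 15 held TTTGAA in at least 1 promoter, against 17.9% of all 32851 single promoters in the table. A gene with several promoters thus had more than 1 chance of a match. The last 120 bases before the start of 5 of them are shown, on the gene's strand with the element in capitals, because they carry it near the start and their genes fell together.
Top2a (chr11:99024190-99024309, minus strand): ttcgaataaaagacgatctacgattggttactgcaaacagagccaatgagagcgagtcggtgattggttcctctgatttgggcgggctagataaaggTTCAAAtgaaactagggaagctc
Cdc20 (chr4:118437344-118437463, minus strand): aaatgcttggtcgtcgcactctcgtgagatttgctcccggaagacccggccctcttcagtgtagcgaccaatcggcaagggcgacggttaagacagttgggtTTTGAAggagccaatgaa
Cdk1 (chr10:69352913-69353032, minus strand): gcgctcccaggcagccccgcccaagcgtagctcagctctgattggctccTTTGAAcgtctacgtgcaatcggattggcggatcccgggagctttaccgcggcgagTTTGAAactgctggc
Kif11 (chr19:37376262-37376381, plus strand): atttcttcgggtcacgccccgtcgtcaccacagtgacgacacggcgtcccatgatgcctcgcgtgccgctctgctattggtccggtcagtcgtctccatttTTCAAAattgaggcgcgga
Ube2c (chr2:164769809-164769928, plus strand): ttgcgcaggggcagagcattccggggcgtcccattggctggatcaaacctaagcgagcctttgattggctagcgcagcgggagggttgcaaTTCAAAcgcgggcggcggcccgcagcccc
Their log2 fold changes were -1.02 for Top2a, which untangles DNA, -0.97 for Cdc20, -0.76 for Cdk1, the mitotic kinase, -0.91 for Kif11, a spindle motor, and -1.01 for Ube2c, a ubiquitin carrier of the anaphase-promoting complex. A match of letters is a description and not a site of binding.

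Stem cell genes fell in part. Of 20 listed 12 were lower, 0 higher and 8 not called, with a median of -0.37. Olfm4, an abundant marker of crypt base cells, stood at 1403 and 1400.3 CPM in sham and 637 and 629 CPM after hepatectomy. Cd44, a hyaluronan receptor and Wnt target, stood at 22.9 and 24.0 CPM in sham and 11.3 and 11.2 CPM after hepatectomy (log2 fold change -1.06 ± 0.075, adjusted p = 3.2e-07). Lgr5, the receptor by which these stem cells are defined, stood at 16.0 and 17.1 CPM in sham and 14.4 and 14.6 CPM after hepatectomy and did not pass (log2 fold change -0.19 ± 0.12, adjusted p = 0.24). Its 2 groups did not overlap, yet the difference was within 2 standard errors. Ascl2, a stem cell transcription factor, did not pass either (16.6 and 13.2 CPM in sham and 13.2 and 13.0 CPM after hepatectomy, adjusted p = 0.26).

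Among 19 tested Wnt targets and regulators, 7 of which are also in the stem cell list, 6 were lower, 1 higher and 12 not called, with a median of -0.19. Ccnd1, cyclin D1, stood at 140.1 and 137 CPM in sham and 53.8 and 50.1 CPM after hepatectomy (log2 fold change -1.42 ± 0.051, adjusted p = 9.1e-10). Axin2, a feedback inhibitor of Wnt signalling, fell from 36.0 and 38.2 to 25.6 and 23.1 CPM, and Ephb2, a receptor that positions crypt cells, from 26.3 and 25.0 to 14.7 and 14.5 CPM. Sp5, a Wnt-induced transcription factor, rose from 17.5 and 17.2 to 30.4 and 30.6 CPM. Myc, a Wnt target that drives growth, did not pass, with 56.2 and 56.5 CPM in sham and 55.2 and 50.1 CPM after hepatectomy. Of 18 ribosome biogenesis genes 16 fell (median -0.47), for example nucleolin, Ncl (269.9 and 261 to 175 and 169 CPM), and of 25 cytosolic ribosomal protein genes 12 fell and 0 rose (median -0.21), or 20 with no filter on low counts.

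Secretory lineages did not move as one. Goblet cell genes were split, with 4 of 17 higher, 6 lower and 7 not called. Muc2, the gel-forming mucin, did not pass, with 689 and 658 CPM in sham and 705 and 719.9 CPM after hepatectomy (adjusted p = 0.17). Zg16, a mucus lectin, rose from 1350.2 and 1333 to 2138 and 2322 CPM. Clca1, a mucus-processing protease, fell from 668 and 664 to 462 and 452 CPM. The goblet genes with the largest fall and rise were Klk1, a kallikrein (63.4 and 60.5 to 26.4 and 27.4 CPM), and Guca2a, guanylin (422 and 422 to 781 and 786 CPM). Of 15 Paneth cell genes 11 were lower and 2 higher, with a median of -0.55. Lyz1, lysozyme, stood at 720.2 and 706 CPM in sham and 489.7 and 485 CPM after hepatectomy (log2 fold change -0.55 ± 0.048, adjusted p = 2.3e-06). Itln1, intelectin, stood at 522 and 497 CPM in sham and 282 and 274 CPM after hepatectomy. The alpha-defensins of the list ranged from -1.23 for Defa22 to -0.27 for Defa30, and they are near copies of each other, so their separate counts are uncertain. The Defa30 call was lost in 3 of 15 alternatives, among them those without the first sham or the first hepatectomy IEC library. The 2 that rose were Guca2b, uroguanylin, which enterocytes also express (895 and 869 to 2664 and 2566 CPM), and the matrix protease Mmp7 (63.3 and 61.8 to 85.5 and 88.7 CPM).

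Hormone genes separated by hormone. Of 19 tested enteroendocrine genes 6 were higher and 3 lower. Gip, the incretin of K cells, stood at 153 and 146 CPM in sham and 264 and 278 CPM after hepatectomy (log2 fold change 0.86 ± 0.050, adjusted p = 6.0e-08). Sct, secretin, went from 75.9 and 74.5 to 106 and 112 CPM, and Ghrl, ghrelin, from 15.2 and 14.7 to 22.9 and 24.2 CPM. Gcg, the precursor of GLP-1 in L cells, fell from 35.5 and 32.9 to 11.1 and 11.6 CPM (log2 fold change -1.59 ± 0.086, adjusted p = 3.2e-08). Chga, a granule protein of the whole lineage, did not pass, with 126 and 124 CPM in sham and 116 and 112 CPM after hepatectomy (adjusted p = 0.073), but passed in 3 of 15 alternatives, among them without the first sham crypt library (adjusted p = 0.038). Of 15 tuft cell genes 3 were higher and 0 lower, and the count of rises is near the 19.5% higher over all genes tested. Il17rb, the receptor of interleukin 25, went from 3.06 and 3.03 to 6.57 and 5.57 CPM, while Dclk1, the usual tuft cell marker, did not pass (33.2 and 37.1 CPM in sham and 33.0 and 29.3 CPM after hepatectomy, adjusted p = 0.13). Cell fate genes of the Notch list were called both ways, with 2 of 13 higher, 4 lower and 7 not called. Over all genes tested 19.5% were higher and 18.3% lower. Notch2, a receptor, fell (11.05 and 11.8 to 7.23 and 6.39 CPM), and Dll1, a ligand, rose (30.1 and 26.0 to 37.6 and 35.5 CPM). The Dll1 call was lost without the second sham IEC library.

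Clock genes formed opposite groups. In the molecular clock BMAL1 (Arntl) with CLOCK or NPAS2 drives genes with E-boxes, among them the Per and Nr1d repressors and the factors Dbp, Tef and Hlf, which act in turn on D-boxes, while REV-ERB (Nr1d1, Nr1d2) represses Arntl, Npas2 and Nfil3 through ROR elements. Of 18 tested clock genes 12 were higher, 3 lower and 3 not called, with a median of 0.87. Dbp (chromosome 7, 45705088 to 45710203, plus strand) stood at 0.746 and 0.959 CPM in sham and 24.4 and 39.3 CPM after hepatectomy, the largest rise of the genes named by rule (37.2-fold, log2 fold change 5.22 ± 0.28, adjusted p = 3.1e-08). The second hepatectomy library was well above the first in Dbp, and both were far above sham. Tef went from 4.18 and 5.18 to 26.6 and 29.4 CPM, Per3, a period gene, from 3.51 and 3.95 to 16.9 and 18.0 CPM, and Nr1d2 from 7.43 and 7.79 to 27.2 and 31.8 CPM. The 3 that fell were Arntl (36.1 and 35.7 to 11.8 and 12.4 CPM, log2 fold change -1.57 ± 0.074, adjusted p = 1.0e-08), Npas2 (14.9 and 20.5 to 8.54 and 10.3 CPM) and Nfil3, a repressor at D-boxes (28.8 and 27.7 to 15.1 and 16.8 CPM). Clock and Cry1 did not pass (adjusted p = 0.58 and 0.68). The sources used here do not say at what time of day tissue was taken, so time of day and operation cannot be told apart in these genes.

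The 3 elements were looked for on both strands of the RefSeq promoters (GRCm38.p6) of the 15 tested clock genes that have one in the table. The E-box CACGTG was found in Per1, Cry1, Tef and Ciart, against 7.15% of all promoters, the D-box TTATGTAA or TTATGCAA in Per1 and Per3, against 1.66%, and the ROR element TAGGTCA in Arntl and Nfil3, against 2.61%. These shares are again over single promoters, whereas a gene counted if any 1 of its promoters held a match. No match of one element overlaps a match of another in these windows. Dbp and Nr1d2, which rose, and Npas2, which fell, held no match of any of the 3 elements. The 250 bases before the start of 5 genes with a match and 30 bases after the start of Arntl are shown, on the gene's strand with the matches in capitals. They were chosen because, among the genes with a match, those that rose and those that fell hold different elements here. By that choice the display is no test of the split, and Cry1, which was not called, is left out of it.
Tef (chr15:81802423-81802672, plus strand): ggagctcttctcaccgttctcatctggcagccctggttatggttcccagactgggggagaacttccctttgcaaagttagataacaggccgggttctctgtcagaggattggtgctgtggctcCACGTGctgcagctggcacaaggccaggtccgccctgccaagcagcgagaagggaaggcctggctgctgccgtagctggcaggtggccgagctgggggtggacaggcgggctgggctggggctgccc
Ciart (chr3:95882229-95882478, minus strand): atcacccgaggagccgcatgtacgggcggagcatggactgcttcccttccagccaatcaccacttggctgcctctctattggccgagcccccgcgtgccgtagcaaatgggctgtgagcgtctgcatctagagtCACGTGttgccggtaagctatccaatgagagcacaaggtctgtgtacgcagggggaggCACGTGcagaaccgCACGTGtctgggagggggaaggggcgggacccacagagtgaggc
Per1 (chr11:69098699-69098948, plus strand): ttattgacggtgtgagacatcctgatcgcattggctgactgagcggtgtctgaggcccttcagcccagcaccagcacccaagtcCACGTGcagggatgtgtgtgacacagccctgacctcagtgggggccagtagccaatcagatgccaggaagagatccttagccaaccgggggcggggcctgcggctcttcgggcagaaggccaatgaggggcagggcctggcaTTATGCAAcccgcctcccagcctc
Per3 (chr4:151044666-151044915, minus strand): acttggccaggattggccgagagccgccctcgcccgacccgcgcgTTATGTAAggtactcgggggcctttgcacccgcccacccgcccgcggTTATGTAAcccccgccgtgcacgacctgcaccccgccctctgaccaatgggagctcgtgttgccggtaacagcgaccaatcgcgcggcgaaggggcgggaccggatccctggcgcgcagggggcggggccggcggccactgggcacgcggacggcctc
Nfil3 (chr13:52981040-52981289, minus strand): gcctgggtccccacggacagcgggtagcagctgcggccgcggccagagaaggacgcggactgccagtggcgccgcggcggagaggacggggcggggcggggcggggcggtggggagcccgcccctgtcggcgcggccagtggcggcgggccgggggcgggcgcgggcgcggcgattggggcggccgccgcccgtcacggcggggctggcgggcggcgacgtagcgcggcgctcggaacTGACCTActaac
Arntl (chr7:113207527-113207556, plus strand): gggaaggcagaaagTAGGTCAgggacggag
Ciart, a repressor of BMAL1 with 3 E-boxes, rose from 0.410 and 0.269 to 1.61 and 2.11 CPM, at a low level. Per1, with 1 E-box and 1 D-box, rose from 10.6 and 9.44 to 14.7 and 15.5 CPM (log2 fold change 0.60 ± 0.11, adjusted p = 0.0013), and Per3, with 2 D-boxes, rose by 2.23 ± 0.14 on the log2 scale. Cry1, which holds an E-box, did not change beyond error (0.08 ± 0.13). Each match describes these letters only.

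**Figure D3:**
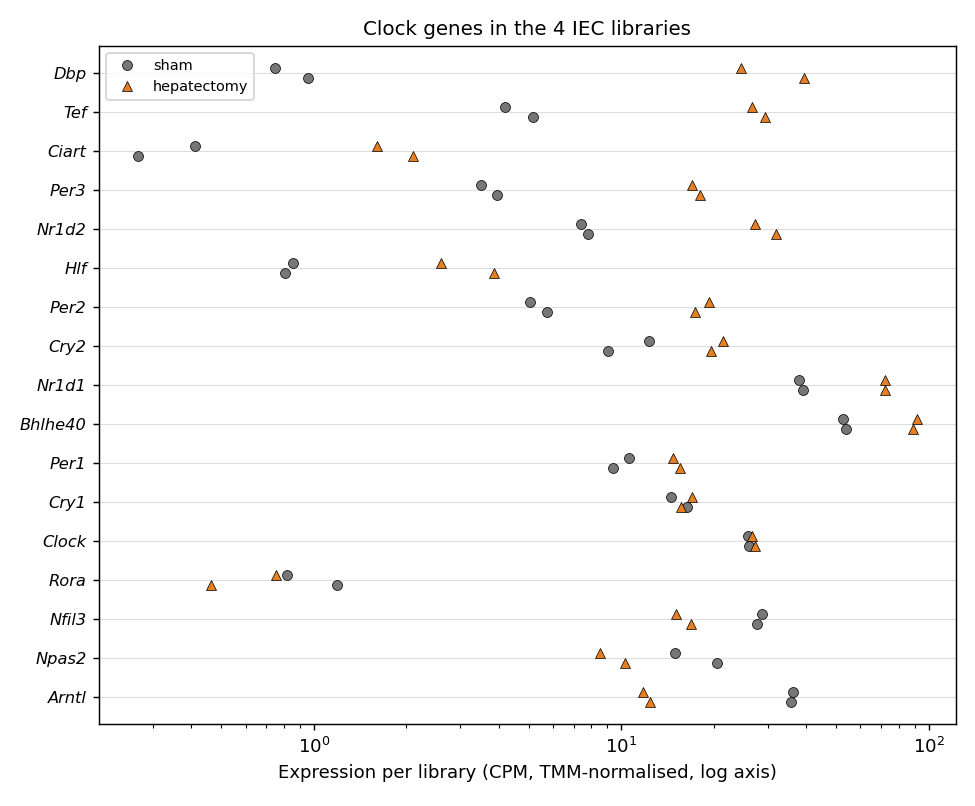
Expression of 17 of the 18 tested clock genes in each IEC library, in TMM-normalised CPM on a log axis, ordered by log2 fold change from Dbp at the top to Arntl at the bottom. Grey circles are the 2 sham libraries and orange triangles the 2 hepatectomy libraries. Dbp lies below 1 CPM in sham and above 24 CPM after hepatectomy, and Arntl, Npas2 and Nfil3 are the 3 called genes with the triangles to the left.

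Of 18 genes of oxidative stress and NADPH oxidases 8 were higher and 6 lower, with a median of 0.07. Nox1, the catalytic subunit of a superoxide-producing NADPH oxidase, stood at 5.90 and 6.10 CPM in sham and 0.821 and 0.607 CPM after hepatectomy (log2 fold change -3.06 ± 0.18, adjusted p = 7.3e-08). Duox2, a peroxide-producing oxidase of the apical membrane, stood at 66.2 and 69.1 CPM in sham and 16.6 and 19.2 CPM after hepatectomy. Its maturation factor Duoxa2 went from 36.9 and 41.0 to 12.8 and 13.9 CPM, and Nos2, inducible nitric oxide synthase, from 29.1 and 28.3 to 13.9 and 13.2 CPM. On the detoxifying side Cat, catalase, rose from 168 and 171 to 373 and 368 CPM, and Gpx2, a glutathione peroxidase of the gut epithelium, fell from 889 and 853 to 416 and 426 CPM. The 8 rises became 4 without the first sham or the second hepatectomy IEC library and 5 without the second sham IEC library.

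Stress genes did not move as a class. Of 17 genes of the unfolded protein response 11 were lower and 5 higher. Hsp90b1, a chaperone of the endoplasmic reticulum, fell from 412 and 424 to 282 and 281 CPM, whereas Herpud1, which serves degradation from that compartment, rose from 84.7 and 85.7 to 198 and 182 CPM (log2 fold change 1.16 ± 0.058, adjusted p = 1.7e-08). Trib3, a stress-induced pseudokinase, rose from 5.19 and 5.98 to 22.1 and 19.6 CPM. Of 13 heat shock genes 7 were lower and 3 higher, with Hsp90aa1, the inducible cytosolic chaperone, going from 286 and 286 to 159 and 166 CPM. Among 14 tested immediate early genes, which answer growth signals and cell handling quickly, 8 were higher and 2 lower. Fos, a subunit of the transcription factor AP-1, stood at 38.4 and 34.1 CPM in sham and 117 and 116 CPM after hepatectomy (log2 fold change 1.69 ± 0.065, adjusted p = 1.5e-09). Of 18 p53 targets and apoptosis genes 8 were higher (5 without the first sham IEC library) and 0 lower, and the cell cycle inhibitor Cdkn1a went from 176 and 176 to 232 and 228 CPM. Of 13 tested genes of fetal-like, regenerating epithelium 6 were higher and 2 lower, with 2 higher under the stricter filter. Il33, an alarm cytokine, rose from 7.35 and 6.83 to 14.2 and 13.9 CPM, Clu, clusterin, rose from 2.09 and 1.99 to 4.14 and 5.75 CPM, and Ly6a, the marker Sca-1, fell from 11.6 and 15.4 to 8.87 and 11.5 CPM (adjusted p = 0.047). The Ly6a call was lost in 5 of 15 alternatives, among them those without the second sham IEC library, the first hepatectomy IEC library or the second sham crypt library.

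Among the genes named for the size of their change, several rose from near the floor. G0s2, an inhibitor of the lipase ATGL, went from 0.149 and 0.269 to 6.60 and 6.50 CPM. Klf15, a transcription factor known as a glucocorticoid target, went from 0.709 and 1.04 to 6.80 and 7.79 CPM. Slc6a3, the dopamine transporter, went from 0.933 and 1.15 to 11.4 and 10.0 CPM. All 3 were at about 1 CPM or less in sham, and the olfactory receptor sums given above also differed between the groups. Gdpd3, a lysophospholipase D, Cyp2c29, a cytochrome P450, Nat8f2, of an acetyltransferase family, and Erdr1 rose by 3.69, 3.19, 3.14 and 4.98 on the log2 scale. The falls included 3 gasdermins, which form membrane pores in the epithelium. Gsdmc4 stood at 82.8 and 82.8 CPM in sham and 8.67 and 10.1 CPM after hepatectomy (log2 fold change -3.14 ± 0.081, adjusted p = 7.7e-11). Gsdmc2 and Gsdmc3 had log2 fold changes of -3.13 and -3.59, and the 3 are near copies, so their separate counts are uncertain. The falls also included genes known from gastric surface cells, for which no list was tested. Tff1, a trefoil peptide, stood at 14.6 and 13.0 CPM in sham and 1.41 and 1.50 CPM after hepatectomy. The gastrokines Gkn1 and Gkn2 went from 9.63 and 10.1 to 1.12 and 0.893 CPM and from 9.89 and 9.13 to 0.690 and 0.929 CPM. Muc5ac and Tff2, also gastric and chosen after their values were seen, had log2 fold changes of -2.04 and -2.10, all at about 1 CPM or less, and the Muc5ac call was lost without the first sham or the second hepatectomy IEC library (adjusted p = 0.052 and 0.064).

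Markers of several other cells differed between the groups. B and plasma cell genes summed to 530 to 542 CPM in sham and 152 to 162 CPM after hepatectomy, with 9 of 14 tested genes lower (4 without the first hepatectomy IEC library) and 0 higher. Igha, the constant region of IgA, stood at 287 and 281 CPM in sham and 74.0 and 77.1 CPM after hepatectomy (log2 fold change -1.91 ± 0.061, adjusted p = 3.1e-10). Jchain, which joins IgA units, stood at 44.2 and 40.9 CPM in sham and 10.0 and 11.1 CPM after hepatectomy. Mast cell genes summed to 27.7 to 28.1 CPM in sham and 10.2 to 10.5 CPM after hepatectomy. Mcpt1, a mucosal mast cell protease, stood at 8.62 and 8.98 CPM in sham and 0.854 and 0.429 CPM after hepatectomy, and reads could be shared with its near copy Mcpt2, which also fell. T and NK cell genes, which include those of intraepithelial lymphocytes, summed to 184 to 187 CPM in sham and 136 to 139 CPM after hepatectomy, with 7 of 18 tested genes lower (3 by DESeq2) and 0 higher. Ccl5, a chemokine of these cells, went from 43.6 and 43.8 to 24.4 and 25.1 CPM. Fibroblast genes summed to 8.47 to 9.74 CPM in sham and 9.33 to 9.68 CPM after hepatectomy, and red blood cell genes to 315 to 325 CPM and 402 to 422 CPM. Genes of the hepatocyte list summed to 763 to 785 CPM in sham and 518 to 571 CPM after hepatectomy, with 1 of 5 tested genes lower, Cps1, and 0 higher. The same list summed to 861 to 907 CPM in sham crypts and 670 to 672 CPM in hepatectomy crypts. Whether any of this sum came from hepatocytes was not tested. Alb, the main plasma protein of hepatocytes, had 2 and 2 counts in sham and 3 and 4 counts after hepatectomy. The part of these cells in the other results was not tested.

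The effect in IEC was set against the effect in crypts by the interaction of the same fit. The difference of the effects passed an adjusted p under 0.05 for 3499 genes (19.2%), of which 1833 were more positive in IEC (10.1%) and 1666 more negative (9.15%). Without the first sham crypt library these counts were 999 and 1350. Goblet cell genes were more positive in IEC in 13 of 17 cases and more negative in 0, with list medians of -0.16 in IEC and -1.08 in crypts. Zg16, which rose in IEC, stood at 893 and 924 CPM in sham crypts and 385 and 365 CPM in hepatectomy crypts, a difference of effects of 2.01 ± 0.067 (adjusted p = 1.4e-08). Muc2 stood at 601 and 595 CPM in sham crypts and 263 and 250.1 CPM in hepatectomy crypts, and its effects differed by 1.30 ± 0.061 (adjusted p = 1.2e-07). These mucus genes thus fell in crypts and kept or raised their level in IEC. T and NK cell genes were more positive in IEC in 13 of 18 cases and more negative in 0, with medians of -0.40 in IEC and -1.47 in crypts. MHC class II genes were more positive in 6 of 9 cases, and H2-Ab1 stood at 1282 and 1211 CPM in sham crypts and 1121 and 1165 CPM in hepatectomy crypts (difference 0.86 ± 0.078, adjusted p = 1.9e-05).

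Absorptive and signalling genes were among those with the larger change in IEC. Reg3b rose in both preparations and more in IEC, by 1.32 ± 0.051 (adjusted p = 3.0e-08). Enpp3, an ectonucleotidase of the brush border, went from 49.1 and 49.1 to 158 and 148 CPM in IEC and stood at 8.52 and 7.54 CPM in sham crypts and 7.11 and 6.66 CPM in hepatectomy crypts (difference 1.86 ± 0.11, adjusted p = 4.3e-07). Scarb1, a lipid receptor, rose in IEC from 3.51 and 3.91 to 13.6 and 16.4 CPM and had a crypt effect of -0.14 ± 0.15 (difference 2.16 ± 0.21, adjusted p = 3.8e-05). Fos stood at 26.3 and 27.7 CPM in sham crypts and 28.5 and 28.6 CPM in hepatectomy crypts, so its rise was seen in IEC (difference 1.61 ± 0.093, adjusted p = 4.3e-07). Gip, with a crypt effect of -0.39 ± 0.052, differed by 1.25 ± 0.072 (adjusted p = 4.3e-07). Fabp1 went the other way and rose less in IEC than in crypts (-1.03 ± 0.061, adjusted p = 5.6e-07), and for Cd36 no difference of effects was called (0.09 ± 0.14, adjusted p = 0.72). A missing call does not show that effects are alike.

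Falls that were larger in IEC included cell cycle genes. Ccnd1 stood at 242 and 245 CPM in sham crypts and 249.9 and 244 CPM in hepatectomy crypts, so its effects differed by -1.44 ± 0.069 (adjusted p = 1.2e-07). Of the mitosis genes 12 of 23 were more negative in IEC and 0 more positive. The median of that list was -0.93 in IEC and -0.66 in crypts. Duox2 had a crypt effect of -0.25 ± 0.066 and a difference of -1.67 ± 0.10 (adjusted p = 6.1e-07). Gcg had a crypt effect of -0.08 ± 0.078 and a difference of -1.51 ± 0.12 (adjusted p = 4.6e-06). Lpin1 differed by -1.88 ± 0.19 (adjusted p = 5.2e-05). The largest negative difference by rule was that of Tff1, which stood at 3.03 and 3.63 CPM in sham crypts and 4.76 and 4.31 CPM in hepatectomy crypts (difference -3.67 ± 0.21, adjusted p = 4.7e-07). The largest positive one was that of the defensin Defa35, a near copy of its relatives, with 10.2 and 12.7 CPM in sham crypts and 0.0294 and 0.186 CPM in hepatectomy crypts (difference 7.41 ± 0.42, adjusted p = 4.0e-07). The 2 hepatectomy crypt libraries held only 1 and 8 counts of Defa35, so the size of that difference is uncertain. Its IEC effect of 0.83 ± 0.24 was not called without either sham IEC library or the second hepatectomy IEC library (adjusted p from 0.056 to 0.099).

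Clock genes were not uniform in this respect. For Dbp and Per3 no difference of effects was called (adjusted p = 0.38 and 0.39). Per2, a period gene, rose more in IEC (1.50 ± 0.17, adjusted p = 8.6e-05), where it went from 5.04 and 5.75 to 19.2 and 17.4 CPM. Nr1d1 rose less in IEC (-1.82 ± 0.12, adjusted p = 1.0e-06), where it went from 37.8 and 39.1 to 72.2 and 72.1 CPM, against 7.88 and 8.90 CPM in sham crypts and 51.8 and 60.1 CPM in hepatectomy crypts.

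**Figure D4:**
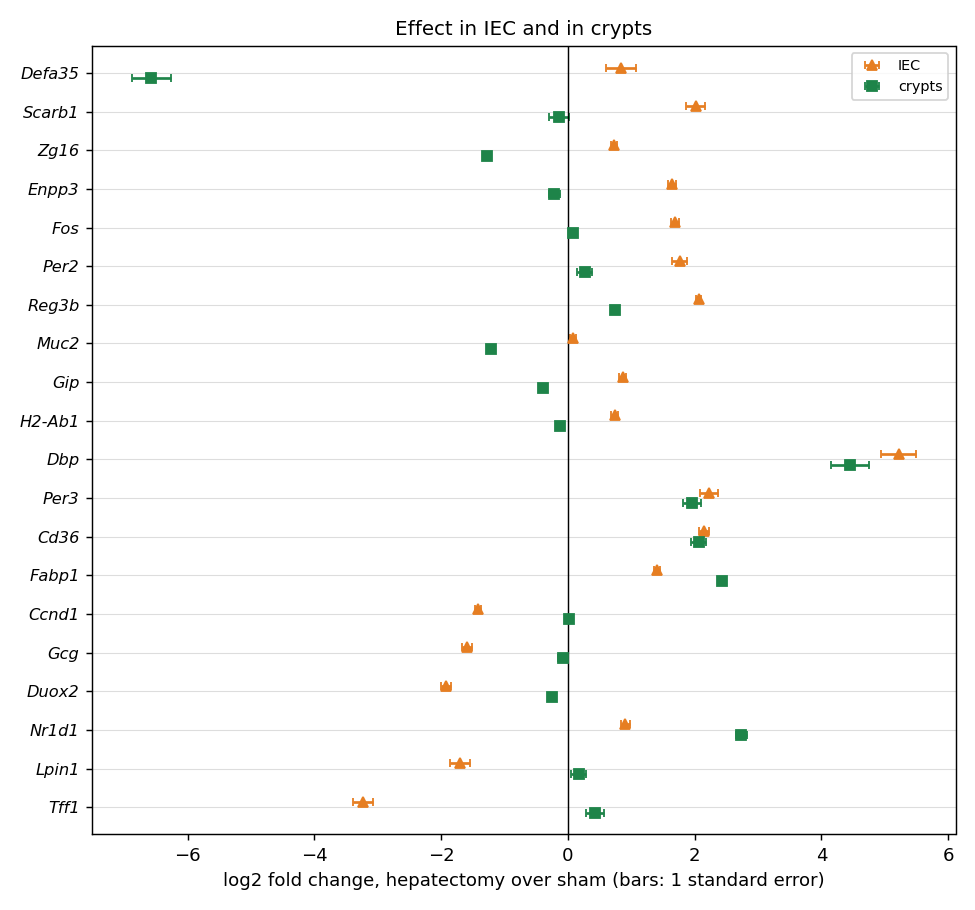
Log2 fold change of hepatectomy over sham in IEC (orange triangles) and in crypts (green squares) for 20 genes whose difference of effects is given in the text, with bars of 1 standard error. The genes are ordered by the difference, from Defa35, Scarb1 and Zg16 at the top, more positive in IEC, to Nr1d1, Lpin1 and Tff1 at the bottom, more negative in IEC.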

How the data were processed

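RNA was sequenced from 8 intestinal libraries, 2 each of sham IEC, hepatectomy IEC, sham crypts and hepatectomy crypts, grouped by their titles. The authors deposited 1 table of estimated counts per library, with a value for each of 33840 genes. For these estimated counts the authors used STAR, a read aligner, Partek and the mm10 mouse genome, per the submitters' processing notes, and the values are not scaled to depth. Versions, the counting step, the annotation and the strand used for counting are not given in the sources used here. Of the deposited counts 36.7% were not whole, and all were rounded to whole numbers.

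The 18207 genes with enough counts were fitted with edgeR 4.0.16 (limma 3.58.1, R 4.3.3), TMM scaling and 1 mean per group over the 8 libraries. By edgeR's filterByExpr, enough meant the CPM of 10 counts at the median library size in at least 2 libraries, and 15 counts in all. Quasi-likelihood tests gave the IEC contrast and its difference from the crypt contrast, and p-values were Benjamini-Hochberg adjusted over all genes tested, with calls at an adjusted p under 0.05. Values are CPM with TMM scaling, except the olfactory receptor sums, which are without it, and no library was left out. Errors are approximate standard errors, worked back from the log2 fold change and the F statistic of its test. They are rough for genes near the floor. Library totals ranged as the report gives, and the 2 libraries of a group differed beyond sampling noise (chi-square per gene 5.42 in sham IEC and 9.96 in hepatectomy IEC). The crypt pairs, which share in the fit, differed by more (32.2 in sham crypts and 19.5 in hepatectomy crypts). The IEC test was also run on simulated counts with 200 changed genes, far fewer than were called in the data. It called 71.6% of the changes of 1.5-fold, 94.0% of those of 2-fold and 100% of those of 4-fold. Unchanged genes made up 6.35% of its calls. The simulated counts were drawn with the spread fitted here, so they cannot show whether that spread is right.

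As alternatives, the counts were tested with DESeq2 1.42.0, with RLE scaling, without the filter, with a stricter one (every library of a group at 1 CPM or more, group mean 5 CPM or more), without mitochondrial and predicted genes, with a replicate block, in the 4 IEC libraries alone, with a 2-fold minimum, and without each library in turn.

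The members and the gene lists were chosen with earlier results of these data known. Genes were named by a rule. It takes the 10 largest called rises and falls whose higher group averages 5 CPM or more and whose groups do not overlap, from each list its first 2 tested genes and up to 4 called genes with the smallest p in the commoner direction and 2 in the other, the PPAR and PEDF partner genes, and the 4 largest positive and negative differences from crypts. Predicted, mitochondrial and immune receptor segment genes and pseudogenes were left out of the selections by size. Outside the rule, and chosen after their values were seen, are Alb, Ascl2, Birc5, Cd36, Cdk1, Cenpe, Ciart, Cry1, Defa30, Dgat2, Dhcr7, Duoxa2, Enpp3, Gins2, Kif11, Lpin1, Mogat2, Muc5ac, Myc, Nos2, Npas2, Npc1l1, Nr1d1, Nr1i2, Nr1i3, Pdk4, Per1, Per2, Scarb1, Tff2 and Xpnpep2. Coordinates are 1-based on mm10. Exon overlaps were read from GENCODE vM21, in which 181 of the 182 named genes were found. Cps1, named only as the call of its list, is not among the 182. Figures were drawn with matplotlib 3.10.9 under Python 3.11.15. Some genes of the lists are counted in their totals but not reported here by name.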

Additional observations from a re-analysis of the deposited data

Results flagged for a closer look

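The effect of hepatectomy in IEC and the effect in crypts differed by edgeR's interaction test, at an adjusted p under 0.05, for 3499 of all genes tested and for 122 of the 182 genes named in the text. The 17 given here are the ones whose difference the report prints, a selection from the 122. Each value is the log2 effect in IEC minus the log2 effect in crypts.

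The effect was more positive in IEC for 10 of them. The difference was 7.41 for the defensin Defa35, which held 1 and 8 counts in the hepatectomy crypt libraries. Among absorptive and defence genes it was 2.16 for Scarb1, 1.86 for Enpp3, 1.32 for Reg3b and 0.86 for H2-Ab1. In the goblet genes it was 2.01 for Zg16 and 1.30 for Muc2, in the incretin gene Gip 1.25, in Fos 1.61 and in the clock gene Per2 1.50.

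The effect was more negative in IEC for the other 7. The difference was -3.67 for the trefoil gene Tff1, -1.88 for Lpin1, -1.67 for Duox2, -1.51 for Gcg and -1.44 for Ccnd1, all of which fell in IEC. For Nr1d1 it was -1.82 and for Fabp1 -1.03, which rose in both preparations and more in crypts. Groups of 2 libraries are too small for a test of single outlying libraries.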

How the results depend on the processing

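Main counts in IEC were 3543 genes higher and 3334 lower. A minimum change of 2-fold left 1035 and 396, by construction. The other settings gave between 2829 (DESeq2) and 3580 (RLE size factors) higher and between 2491 (stricter filter) and 4040 (no filter) lower. Leaving out 1 library gave 2659 to 3565 higher and 2636 to 3612 lower. The difference from crypts was more positive in IEC for 1833 genes and more negative for 1666. It gave 1269 and 1359 by DESeq2 and, leaving out 1 library, 999 to 1498 and 1167 to 1612. The lowest of these, 999, came without the first sham crypt library, and the cause was not tested. A group left with 1 library was assumed to vary like the others. Of 182 named genes 10 lost and 5 gained their IEC call under at least 1 alternative and 0 changed direction. Of 20 named differences from crypts 0 changed sides in the alternatives run. Muc2 and Xpnpep2 passed with the stricter filter and Dclk1 with no filter, which also took the enteroendocrine falls from 3 to 5. With 2 libraries a group each gene has 4 residual degrees of freedom. The edgeR fit also borrows from the spread of the other genes, so the p-values rest on both. Depth limits genes near the floor such as Serpinf1.

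The replicate numbers in the titles are not tied to mice or days. Deviations of same-numbered libraries correlated at 0.266 between sham IEC and hepatectomy IEC and between -0.088 and 0.034 for the other pairs of groups, so the numbers were not taken as pairs. With a replicate block 3498 genes were higher and 3276 lower, and 1705 and 1564 differed from crypts. No named gene changed its call under the block.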
